A study of Mus musculus with 18 samples.

Results

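The NF-κB subunits and the IκB proteins that bind them are described here through 10 genes, taken by symbol from a table of 24421 genes. They are the subunit genes Nfkb1, Nfkb2, Rel, Rela and Relb, the cytoplasmic inhibitor genes Nfkbia, Nfkbib and Nfkbie, and the nuclear IκB genes Nfkbiz and Bcl3. All 10 passed the filter on low counts and are among the 13507 genes tested, and together they took from 0.0325% to 0.0805% of the counts of a library.

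The study sequenced total RNA, depleted of ribosomal RNA, from cultures of 4T1, a mouse mammary carcinoma cell line, and of 4T1R1 and 4T1R2, populations derived separately from 4T1 by repeated exposure to 17-DMAG. 17-DMAG is a geldanamycin derivative that inhibits HSP90, a chaperone. Libraries came from untreated and from 17-DMAG-treated cells of each, so that the 6 groups ask how the parental and resistant populations differ at rest and how each responds to the drug. Each group has 3 libraries. All cells were labelled wild type, of strain BALB/cfC3H, and were grown in DMEM with serum. Treated cells received 1.5 µM 17-DMAG, for 48 h according to the sample records and for 2 h according to the text of the series. The resistant populations had survived 3 rounds of 1.5 µM 17-DMAG for 48 h according to the sample records, or cycles of 1 µg/ml for 24 h according to the series text. They are selected populations rather than clones, each made once, so a difference of either from 4T1 belongs to that population. The 3 libraries of a group are called biological replicas, and nothing further says how the cultures were separated, so P-values measure the spread between these libraries.

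NF-κB is a family of dimeric transcription factors built from RelA, RelB, c-Rel and the processed products p50 and p52 of Nfkb1 and Nfkb2. In resting cells IκBα, IκBβ and IκBε hold most dimers in the cytoplasm until the IKK kinase complex phosphorylates them and they are degraded. Nfkbia, Nfkbie, Nfkb2, Relb and Rel are themselves well known targets of NF-κB, which closes a feedback loop, and IKK is known to depend on HSP90 and its co-chaperone CDC37.

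Sequences before the start sites are shown for members that hold the 10-base NF-κB consensus (a κB site), searched here as 3 G, a purine, any base, 3 pyrimidines and a pair of C, and for Nfkbib, the cytoplasmic inhibitor gene that behaved least like the others. The set of RefSeq promoters used here held 250-base promoters for 7 of the 10 members, with 9 start sites in all. It held none for Nfkb1, Relb and Nfkbiz, which were therefore not searched. The capitals mark the bases that match the consensus on either strand, and positions are in GRCm38.p6.
Nfkbia, chr12:55492648-55492767, minus strand: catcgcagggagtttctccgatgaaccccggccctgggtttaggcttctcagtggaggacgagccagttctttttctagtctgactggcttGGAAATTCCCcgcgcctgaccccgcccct
Rel, chr11:23770970-23771089, minus strand: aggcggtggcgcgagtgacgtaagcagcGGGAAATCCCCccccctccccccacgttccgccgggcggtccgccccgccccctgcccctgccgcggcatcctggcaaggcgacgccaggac
Nfkb2, first start site, chr19:46304688-46304717, plus strand: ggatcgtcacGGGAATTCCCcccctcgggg
Nfkb2, first start site, chr19:46304708-46304736, plus strand: cccctcggggggccgaaaGGGGCTTTCCc
Nfkb2, last listed start site, chr19:46305695-46305724, plus strand: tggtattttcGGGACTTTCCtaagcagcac
Nfkbib, chr7:28766645-28766734, minus strand: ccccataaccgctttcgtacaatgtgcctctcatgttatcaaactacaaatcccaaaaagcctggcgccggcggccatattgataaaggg

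The consensus lay 20 to 29 bases before the Nfkbia start, 30 to 39 and 2 to 11 bases before the first Nfkb2 start, and 216 to 225 bases before its last listed start. In Rel a pair of overlapping matches covered bases 82 to 92 before the start. It was thus found in 3 of the 7 members with a listed promoter, and in 5% of the 32851 RefSeq promoters of the same length that were searched. The 5% is per start site, whereas a member counted if any of its start sites matched, so the 2 figures are not alike. The result depends on the letters: a wider form that allows any base at the sixth position, added after the data were seen, was found in 7.25% of all promoters and outside the sites above also matched GGGGGATTCC at 106 to 97 bases before the Nfkbie start and GGAATGTCCC at 236 to 227 bases before the second Nfkb2 start. Neither form was found in the windows of Rela, Nfkbib or Bcl3. The AP-1 sequence TGANTCA, found in 6.75% of all promoters, lay 150 to 156 bases before the Nfkbie start and 204 to 210 bases before the second Nfkb2 start. The heat shock element GAANNTTC, found in 6.69% of all promoters, was in none of the members' windows. Both strands were searched for each, and a match describes letters only.

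Nfkb1 (chr3:135584655-135691547, minus strand, 26 merged exons), Nfkb2 (chr19:46304320-46312385, plus strand, 20 exons), Rel (chr11:23736847-23770970, minus strand, 10 exons), Rela (chr19:5637483-5648130, plus strand, 13 exons) and Relb (chr7:19606217-19629438, minus strand, 15 exons) are positioned as in GENCODE vM21 on GRCm38. The inhibitor genes are Nfkbia (chr12:55489410-55492647, minus strand, 6 exons), Nfkbib (chr7:28758251-28767512, minus strand, 8 exons), Nfkbie (chr17:45555703-45563169, plus strand, 5 exons), Nfkbiz (chr16:55811375-55838899, minus strand, 15 exons) and Bcl3 (chr7:19808462-19822770, minus strand, 11 exons). Nfkb2 shares 299 exon bases with Psd on the other strand and Nfkbib shares 42 with Sirt2. Of genes not listed in the counts, AC114539.1 shares 531 bases with Nfkb2, Ccer2 314 with Nfkbib and Gm16175 161 with Bcl3. These too lie on the other strand. Whether counting used strand is not stated, so reads in these bases cannot be assigned with certainty. Psd ran from 332.5 to 741.5 normalized counts over the libraries, all below the lowest Nfkb2 value, and Sirt2 from 574 to 765, at about the level of Nfkbib.

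Totals per library ran from 23354461 to 55094630 counts. Rn45s, a ribosomal RNA precursor, took from 9.54% to 15.6% of them, and scaling by total counts alone includes it. In the treated 4T1 group, the counts of replicates 1 and 2 agreed more closely than any other pair within groups. Their chi-square per gene was 1.1, against 2.04 to 2.22 in the 17 other pairs. With both reads of a fragment apparently counted, 1.1 may lie below sampling noise. The pair was counted as 1 sample, which leaves n = 2 for that group and 17 libraries. Hsph1, a heat shock gene used as a check of treatment, rose after 17-DMAG by 2.72 on the log2 scale in 4T1, by 1.75 in 4T1R1 and by 1.18 in 4T1R2. Its smaller rise in the resistant populations moves with the smaller responses given further on, and its part in them was not tested. The 5 epithelial markers summed to 50220 to 76100 normalized counts in every library, and the sum was lower in 4T1R1 (50220 to 52740) and 4T1R2 (58260 to 61660) than in 4T1 (74580 to 76100). Krt7, Krt8 and Krt18 made up most of the sum and had lower group means in both resistant populations, whereas Cdh1 was not lower in either (11140 in untreated 4T1, 11240 in 4T1R1 and 13480 in 4T1R2). Epcam was lower mainly in 4T1R1, with means of 1521 in untreated 4T1, 757.5 in untreated 4T1R1 and 1415 in untreated 4T1R2. The 7 leukocyte markers summed to 25.7 to 38.1 in 4T1 and 4T1R1 and to 34.2 to 71.7 in 4T1R2, where untreated libraries (40.3 to 71.7) all lay above those of untreated 4T1 (25.7 to 31.2) and Csf1r had a mean of 30.6 against 10.3. Itgam (6.5 against 0) and Cd79a (4.47 against 2.73) were also higher in untreated 4T1R2 than in untreated 4T1, at few counts. Ptprc went the other way, with means of 14.9 in untreated 4T1, 5.85 in untreated 4T1R1 and 10.2 in untreated 4T1R2. The 3 endothelial markers summed to 1.9 to 17.5. Of both lists, Cd3e, Adgre1, Lyz2 and Kdr were at 0 in most groups or near it. Of the 4 fibroblast markers Dcn was at or near 0 and Pdgfra, also expressed by other cells, ran from 375 to 1027. The sum of the 4 was 688 to 766.5 in untreated and 399 to 421 in treated 4T1, and 709.9 to 1043 in the resistant groups, and the part of these marker sums in the results was not tested. The names of the 4T1R1 libraries form a run apart from those of 4T1 and 4T1R2, so a 4T1R1 difference from 4T1 and one between runs of library names cannot be told apart, whereas each drug response and the comparison of 4T1R2 with 4T1 lie within a run.

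Values are normalized counts, that is counts scaled by edgeR's TMM library sizes to the mean library. Differences are log2FC with the SE, tested by edgeR's quasi-likelihood test and adjusted by the Benjamini-Hochberg method over all genes tested, with 0.05 as the threshold. The values of the 10 genes in the 17 libraries are plotted first.

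**Figure D1:**
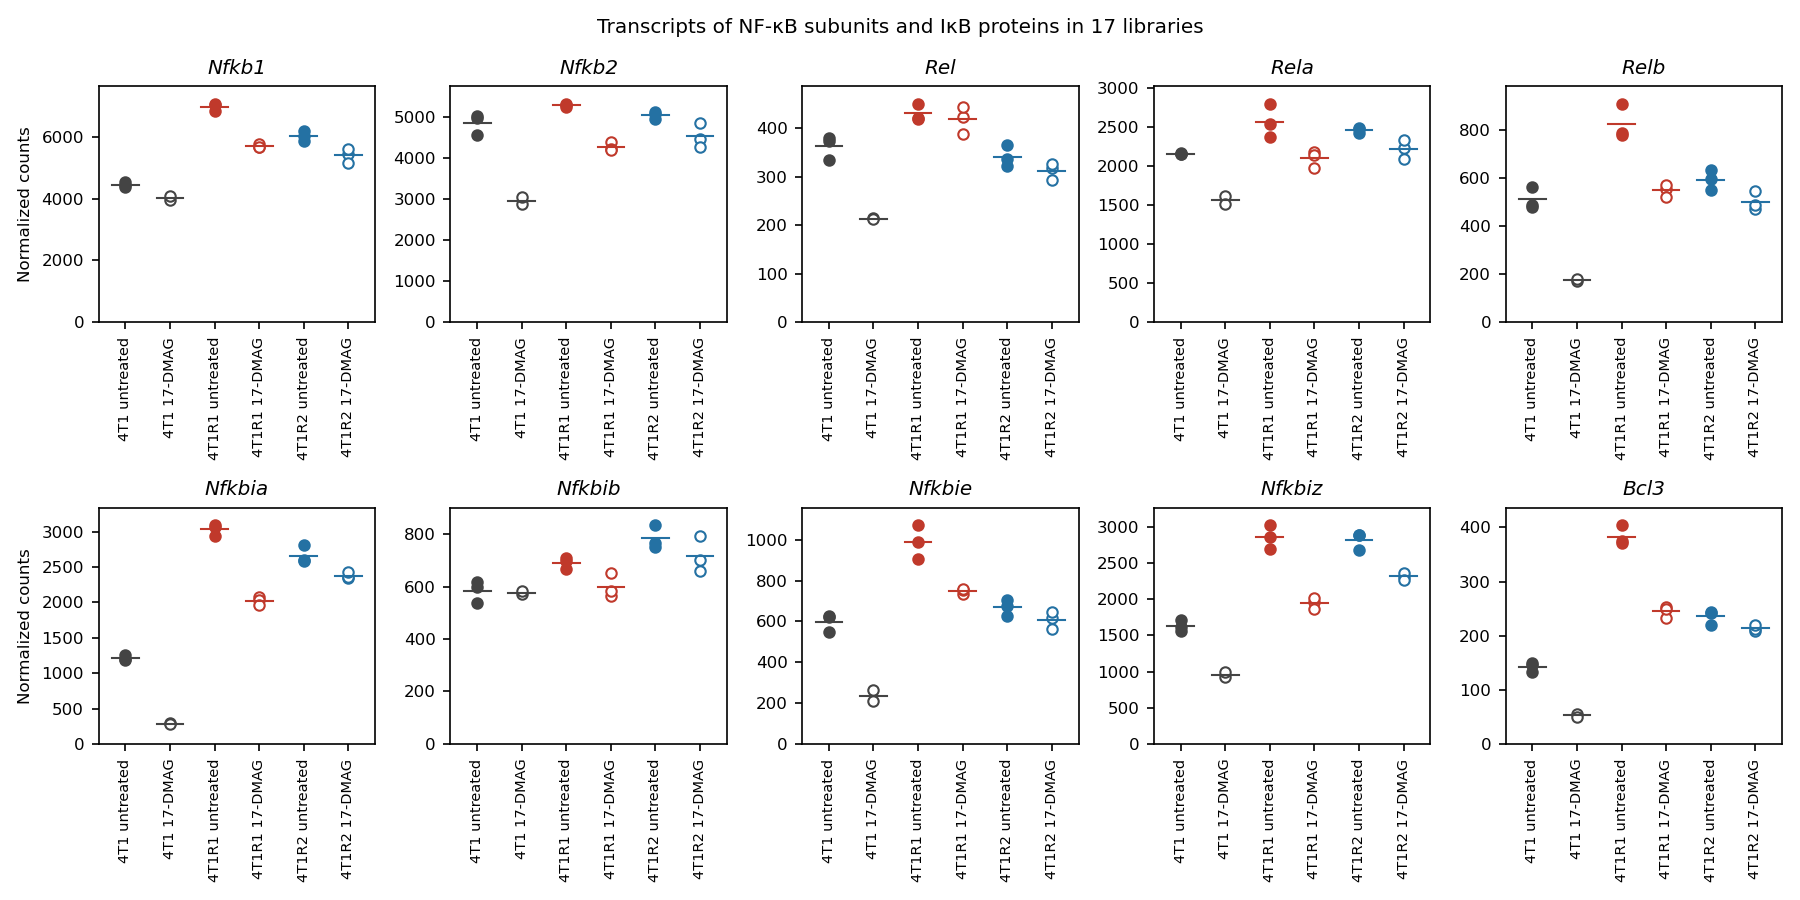
Normalized counts (linear axis from 0) of the 10 genes in each library. Filled points are untreated and open points 17-DMAG-treated libraries, and lines are group means. 17-DMAG-treated 4T1 has the lowest mean for every gene, and its libraries overlap those of other groups only in Nfkbib. Its Nfkbia lies at 275 to 292 against at least 1192 in every other group.

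In parental 4T1 cells 17-DMAG lowered 9 of the 10 transcripts, and Nfkbib alone did not pass the test. The drop was deepest in Nfkbia, which kept 23.3% of its untreated level, and next in Relb, Bcl3 and Nfkbie, which kept 34.6%, 36.9% and 39.5%. Nfkb1 fell least and kept 90.1%. None of the 10 rose. Over all genes tested 17.9% were lower and 18.4% higher in this comparison, and the median log2FC was -0.77 for the 10 genes against 0.001 for all. In bulk RNA, fewer cells expressing a gene and less RNA per cell cannot be told apart.

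Among the subunits, the NF-κB2 gene Nfkb2, whose product is processed to p52, stood at 4564, 4980 and 5039 normalized counts in untreated 4T1 and at 2889 and 3045 after 17-DMAG (log2FC -0.71, SE 0.0455, adjusted P = 1.41e-16). Relb, whose product pairs mainly with p52 in the non-canonical branch, stood at 480, 491 and 565 untreated and at 173 and 182 treated (log2FC -1.53, SE 0.107, adjusted P = 2.72e-15). Treated and untreated libraries did not overlap for either gene, and the treated Relb values were the lowest of the series. Rel, which encodes c-Rel, went from 334.5, 374 and 378 to 212 and 214 (log2FC -0.77, SE 0.106, adjusted P = 1.22e-07). Rela, the main activating subunit, went from 2153, 2157 and 2172 to 1513 and 1614 (log2FC -0.47, SE 0.0571, adjusted P = 8.02e-09). These groups did not overlap either. Nfkb1, the source of p50, was 4375, 4442 and 4534 untreated and 3947 and 4076 treated (log2FC -0.15, SE 0.0375, adjusted P = 0.00144), a small gap next to its level. With total counts as the only scaling the Nfkb1 value was -0.265.

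The cytoplasmic inhibitors moved apart from one another. Nfkbia, which encodes IκBα, the fast-resynthesized inhibitor, stood at 1192, 1194 and 1262 untreated and at 275 and 292 after 17-DMAG, a 4.3-fold fall (log2FC -2.10, SE 0.0672, adjusted P = 7.16e-27). Nfkbie, which encodes IκBε, stood at 549, 622 and 626 and then at 211 and 262 (log2FC -1.33, SE 0.0993, adjusted P = 1.76e-14). Nfkbib, which encodes IκBβ, was 536.5, 597 and 617 untreated and 570.3 and 583 treated, inside the untreated range (log2FC -0.02, 95% interval -0.19 to 0.16, adjusted P = 0.913). That interval leaves out a fall as deep as that of any other member except Nfkb1.

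Both nuclear IκB genes fell. Nfkbiz encodes IκBζ, an inducible cofactor of p50 dimers, and its counts went from 1566, 1616 and 1712 to 926 and 993 (log2FC -0.76, SE 0.0577, adjusted P = 2.31e-14). Bcl3, which encodes a partner of p50 and p52 homodimers, had the lowest counts of the 10 genes, at 134, 145 and 149.6 untreated and 50.3 and 55.1 treated (log2FC -1.44, SE 0.156, adjusted P = 4.93e-10). The treated libraries lay below all untreated ones for both.

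In 4T1R1 cells 17-DMAG lowered the same number of genes, 9 of 10, but by less: the deepest log2FC was -0.64, in Bcl3, and the median of the 10 was -0.35. Here Rel was the gene that did not pass. Of all genes tested 14.3% were lower and 13.9% higher. In 4T1R2 cells 5 of the 10 were lower, namely Nfkb1, Nfkb2, Rela, Nfkbia and Nfkbiz, all by 0.28 or less on the log2 scale, with a median of -0.15. Of all genes tested 4.35% were lower and 6.18% higher in 4T1R2.

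Nfkbia went from 2945, 3073 and 3096 to 1958, 2036 and 2073 in 4T1R1 (log2FC -0.59, SE 0.0427, adjusted P = 3.90e-14). In 4T1R2 it went from 2581, 2596 and 2815 to 2344, 2358 and 2433 (log2FC -0.16, SE 0.0425, adjusted P = 0.00827). Groups did not overlap in either population, and after the drug every resistant library still held more Nfkbia than any untreated 4T1 library. Relb in 4T1R1 went from 780.5, 789 and 911.5 to 522, 555 and 571 (log2FC -0.59, SE 0.0785, adjusted P = 1.86e-07). Its counts in 4T1R2 were 551.5, 596 and 633 untreated and 471, 489.8 and 548 treated, which missed the threshold (log2FC -0.24, SE 0.0815, adjusted P = 0.0549) although the libraries did not overlap.

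Bcl3 in 4T1R1 went from 371, 374 and 405 to 233, 249 and 254 (log2FC -0.64, SE 0.0991, adjusted P = 2.77e-06). In 4T1R2 its values were 221, 242 and 244 untreated and 208.5, 213 and 219.7 treated (log2FC -0.14, 95% interval -0.35 to 0.08, adjusted P = 0.476). Those groups lie side by side without overlap, yet the gap is small for a gene of this count. Nfkbie went from 905, 989 and 1073 to 735, 756.5 and 758 in 4T1R1 (log2FC -0.40, SE 0.0734, adjusted P = 4.90e-05), and its values in 4T1R2 overlapped, at 627, 677 and 707.5 untreated and 563, 617 and 646 treated (log2FC -0.14, adjusted P = 0.268). Nfkbiz was called in both, with a log2FC of -0.56 in 4T1R1 (2698, 2865 and 3027 untreated, 1866, 1958 and 2017 treated) and of -0.28 in 4T1R2 (2686, 2884 and 2891 untreated, 2268, 2310 and 2368 treated). It was the member with the deepest fall in 4T1R2.

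Of the other subunits, Nfkb1 had a log2FC of -0.29 in 4T1R1 (SE 0.0324) and of -0.15 in 4T1R2 (SE 0.0327), the latter as in 4T1. Nfkb2 had a log2FC of -0.31 in 4T1R1 and -0.16 in 4T1R2, and Rela of -0.29 and -0.15. For Rel the values were -0.04 in 4T1R1 (95% interval -0.22 to 0.13) and -0.13 in 4T1R2 (95% interval -0.31 to 0.05), with overlapping libraries in both. Both intervals leave out the Rel fall of 0.77 seen in 4T1. Nfkbib had -0.21 in 4T1R1 (adjusted P = 0.0343) and -0.13 in 4T1R2 (adjusted P = 0.294).

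Several of these small calls rest on single libraries. Without treated 4T1R2 replicate 2, Nfkb2 in 4T1R2 had a log2FC of -0.12 and was not called, and the same holds for Nfkbia in 4T1R2 without untreated replicate 3 (-0.12, adjusted P = 0.108). Rela in 4T1R2 was not called without any 1 of the 3 untreated replicates or without treated replicate 1 or 2 (-0.16 to -0.11). Nfkbib in 4T1R1 was not called without untreated or treated replicate 1 or 2 of that population (-0.20 to -0.16), nor with total counts as the only scaling (-0.173). Relb in 4T1R2 was called without treated or untreated 4T1R2 replicate 1, without untreated 4T1R1 replicate 2 or without untreated 4T1 replicate 2 (-0.30 to -0.24). It was also called with total counts as the only scaling (-0.284, adjusted P = 0.0147), with at least 10 counts required in every library (adjusted P = 0.0481) and in a fit of only the groups compared (adjusted P = 0.0485).

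**Figure D2:**
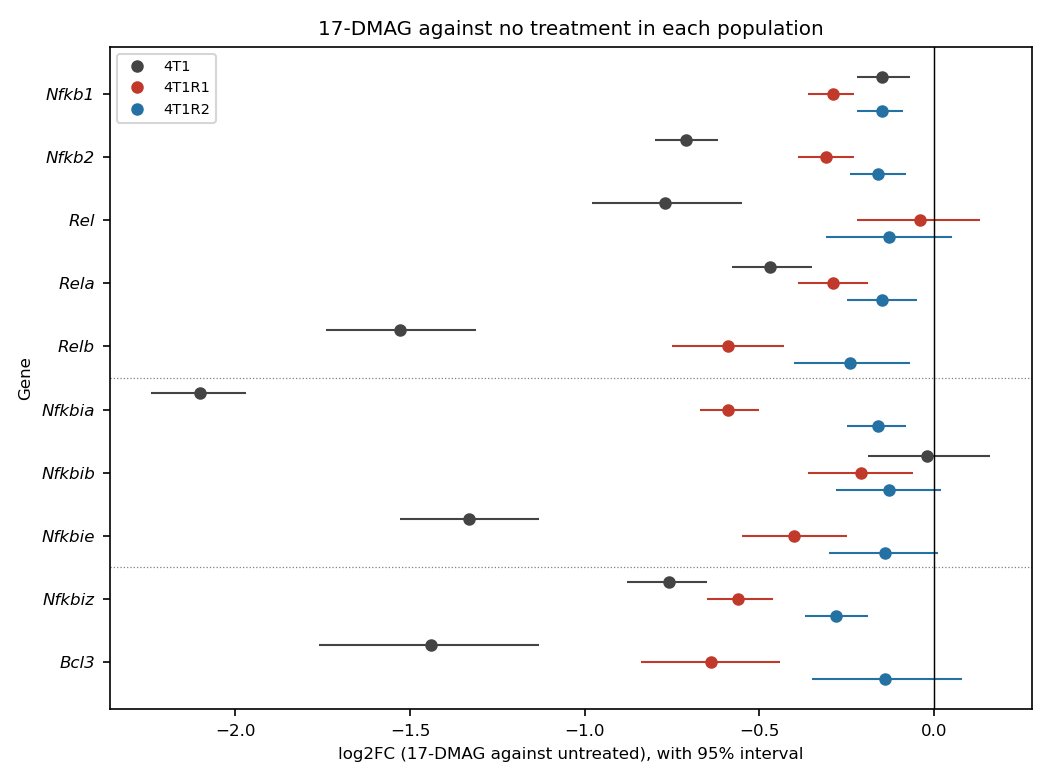
log2FC of 17-DMAG-treated against untreated libraries of each population (points) with 95% intervals (lines), for the subunits, cytoplasmic inhibitors and nuclear IκB genes from top to bottom. Nfkbia runs from -2.10 in 4T1 to -0.59 in 4T1R1 and -0.16 in 4T1R2, while Nfkbib intervals in the 3 populations overlap.

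The responses themselves were then compared by interaction terms. These 3 comparisons share libraries with each other and with the responses above, so each is given on its own. Relative to 4T1, the 17-DMAG response of 4T1R1 was higher (a smaller fall) for 7 members and lower for 1, against 9.16% and 9.08% of all genes, and that of 4T1R2 was higher for 8 and lower for none, against 9.62% and 8.16%. Between 4T1R2 and 4T1R1 it was higher in 4T1R2 for 2 members, against 1.21% of genes higher and 0.918% lower.

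Nfkbia differed most. Its response was 1.52 higher on the log2 scale in 4T1R1 than in 4T1 (SE 0.0808, adjusted P = 1.99e-18), 1.94 higher in 4T1R2 than in 4T1 (SE 0.0803, adjusted P = 4.27e-22), and 0.42 higher in 4T1R2 than in 4T1R1 (SE 0.0603, adjusted P = 1.13e-05). Relb differed from 4T1 by 0.94 and 1.29, Nfkbie by 0.93 and 1.18, Bcl3 by 0.80 and 1.31, Rel by 0.72 and 0.64, and Nfkb2 by 0.40 and 0.55, in 4T1R1 and 4T1R2 in that order, all called. Rela differed by 0.32 in 4T1R2 (adjusted P = 0.00197) but missed the threshold in 4T1R1 (0.18, adjusted P = 0.102). It was called there without untreated 4T1R1 replicate 2 or treated 4T1R1 replicate 1 (0.22 to 0.24), with 18 separate libraries (0.197, adjusted P = 0.0384), and with total counts as the only scaling (0.326, adjusted P = 0.000572), which moved the median of all genes by 0.149.

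Nfkbiz differed by 0.48 in 4T1R2 and by 0.21 in 4T1R1. The latter call was lost without any 1 of 8 libraries, namely untreated 4T1R1 replicate 1 or 2, treated 4T1R1 replicate 1 or 3, untreated 4T1 replicate 3, treated 4T1 replicate 2 or 3 and treated 4T1R2 replicate 1 (0.16 to 0.21), and in a fit of only the groups compared (adjusted P = 0.0579). With total counts as the only scaling it was 0.357. Its call between 4T1R2 and 4T1R1 (0.27) was lost without untreated 4T1R2 replicate 1 (0.24, adjusted P = 0.0531) and with total counts as the only scaling (0.193). Bcl3, at 0.51 and adjusted P = 0.0532 between these populations, was called without untreated 4T1 replicate 1 (adjusted P = 0.0496).

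Nfkb1 was the 1 member whose lower response in 4T1R1 than in 4T1 passed the test (-0.14, adjusted P = 0.0343), a direction that turned to 0.005 when libraries were scaled by total counts alone. That call was also lost without any 1 of 7 samples, namely untreated 4T1R1 replicate 3, treated 4T1R1 replicate 1 or 3, untreated 4T1 replicate 1 or 3, and treated 4T1 replicate 3 or the averaged replicates 1 and 2 (-0.16 to -0.12). The response of Nfkb1 in 4T1R2 differed from that in 4T1 by -0.01 (95% interval -0.11 to 0.09) and that of Nfkbib by -0.11 (95% interval -0.34 to 0.11). For Nfkbib in 4T1R1 the difference was -0.19 (95% interval -0.42 to 0.04), farther from 0 than that of Nfkb1 but with a wider interval.

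The scale matters to how these responses compare, because the resistant populations started from higher levels. In normalized counts Nfkbia fell by 932 in 4T1 (SE 24.4, from 1216 to 283) and by 1016 in 4T1R1 (SE 58.1, from 3038 to 2022), but by 286 in 4T1R2 (SE 80.4, from 2664 to 2378). In counts the 4T1R1 fall thus lay close to that of 4T1, while as a share of the untreated level it was smaller. Nfkbiz fell by 672, 916 and 505 counts and Bcl3 by 90.2, 138 and 21.8 counts in 4T1, 4T1R1 and 4T1R2. For Relb and Nfkb2 the order in counts was the same as in log2FC, with falls of 335, 277.5 and 90.7 and of 1893, 1015 and 522. These differences in counts were not tested.

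Untreated 4T1R1 cells had more of all 10 transcripts than untreated 4T1 cells, led by Bcl3 (2.68-fold) and Nfkbia (2.50-fold). The median log2FC of the 10 was 0.67, against 0.008 for all genes, of which 25.2% were higher and 27.5% lower. Untreated 4T1R2 cells had more of 7 of them, led by Nfkbia (2.19-fold), Nfkbiz (1.73-fold) and Bcl3 (1.64-fold). The median was 0.32, with 25.6% of all genes higher and 26.9% lower. These comparisons share the untreated 4T1 libraries.

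Nfkbia libraries of untreated 4T1R1 (2945 to 3096) and 4T1R2 (2581 to 2815) all lay above those of untreated 4T1 (1192 to 1262), with a log2FC of 1.32 (SE 0.0448, adjusted P = 4.03e-26) and of 1.13 (SE 0.0455, adjusted P = 1.51e-23). Nfkbiz had a log2FC of 0.81 and 0.79, and Bcl3 of 1.42 (SE 0.106) and 0.72 (SE 0.113). Neither gene's 4T1 libraries overlapped those of a resistant population. Nfkbib was higher by 0.24 and 0.43. Nfkbie was higher by 0.72 in 4T1R1 (adjusted P = 7.81e-11), whereas in 4T1R2 its difference of 0.16 missed the threshold (adjusted P = 0.0768), and it was called only without untreated 4T1R2 replicate 2 among the single libraries left out (0.21), and with total counts as the only scaling (0.183, adjusted P = 0.0473).

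Of the subunits, Nfkb1 was higher in both, with a log2FC of 0.65 in 4T1R1 (SE 0.0328, 6836 to 7076 against 4375 to 4534) and 0.44 in 4T1R2 (SE 0.0332, 5870 to 6174). Rela was higher by 0.25 and 0.19. Relb was higher by 0.69 in 4T1R1 and by 0.21 in 4T1R2, where libraries overlapped (adjusted P = 0.0288). Nfkb2 was higher by 0.12 in 4T1R1 (adjusted P = 0.00662) and had 0.06 in 4T1R2 (95% interval -0.02 to 0.14). Rel was higher by 0.25 in 4T1R1 (adjusted P = 0.0152) and had -0.09 in 4T1R2 (95% interval -0.27 to 0.10).

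Single libraries again decided the smallest of these. In 4T1R1 the calls of Nfkb2 (0.08) and Nfkbib (0.19) were lost without untreated 4T1 replicate 1, and that of Rel without untreated 4T1R1 replicate 3 or untreated 4T1 replicate 2 (0.19 to 0.21). In 4T1R2 the call of Relb was lost without untreated 4T1 replicate 1 or 3 or untreated 4T1R2 replicate 2 or 3 (0.16 to 0.21).

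Between the untreated resistant populations, 6 members were lower in 4T1R2 than in 4T1R1 and 1 was higher, with 19.0% of all genes lower and 19.7% higher. Bcl3 (-0.71), Nfkbie (-0.56), Relb (-0.48), Rel (-0.33), Nfkb1 (-0.21) and Nfkbia (-0.19) were the lower ones. Nfkbib was higher in 4T1R2 (0.18, adjusted P = 0.0454), a call lost without any 1 of 8 samples, namely each untreated 4T1R1 replicate, untreated 4T1R2 replicate 1 or 3, treated 4T1R2 replicate 1, and treated 4T1 replicate 3 or the averaged replicates 1 and 2 (0.14 to 0.20), with total counts as the only scaling (adjusted P = 0.0577) and without a filter on low counts (adjusted P = 0.0635). Nfkbiz, at 2698 to 3027 in 4T1R1 and 2686 to 2891 in 4T1R2, had -0.02 (95% interval -0.11 to 0.07), and its libraries overlapped. The library names of 4T1R1 and 4T1R2 belong to different runs.

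**Figure D3:**
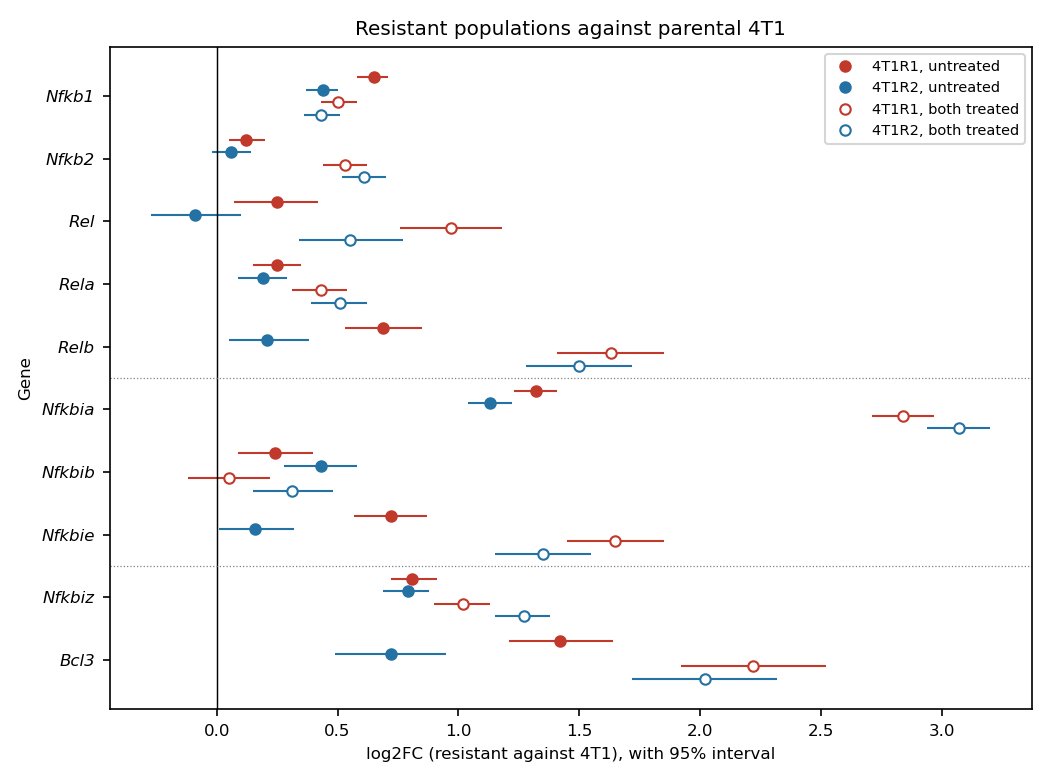
log2FC of each resistant population against 4T1 (points) with 95% intervals (lines), between untreated cells (filled) and between 17-DMAG-treated cells (open). Nfkbia lies farthest right when treated cells are compared, at 2.84 in 4T1R1 and 3.07 in 4T1R2, and Nfkbib near 0.05 and 0.31.

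When the treated cells were compared, 9 members were higher in 4T1R1 than in 4T1 and all 10 were higher in 4T1R2. Nfkbia was 7.16-fold and 8.41-fold higher, Bcl3 4.67-fold and 4.07-fold, Nfkbie 3.14-fold and 2.54-fold, and Relb 3.10-fold and 2.83-fold. The medians of the 10 were 1.00 and 0.94. Of all genes 25.1% were higher and 27.6% lower in treated 4T1R1, and 25.8% and 28.0% in treated 4T1R2. Both comparisons share the 2 treated 4T1 samples.

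The subunit genes were all higher in both. In treated 4T1R1 the log2FC was 0.97 for Rel (SE 0.105), 0.53 for Nfkb2, 0.50 for Nfkb1 and 0.43 for Rela, and in treated 4T1R2 it was 0.55 for Rel (SE 0.106), 0.61 for Nfkb2, 0.43 for Nfkb1 and 0.51 for Rela. Nfkbiz was higher by 1.02 and 1.27. Nfkbib was higher by 0.31 in treated 4T1R2 (adjusted P = 0.00141), whereas in treated 4T1R1 its libraries, at 564, 583 and 652, overlapped those of treated 4T1 (log2FC 0.05, 95% interval -0.12 to 0.22). With total counts as the only scaling that last value was 0.23 and was called, but the median of all genes moved by 0.176 under the same scaling.

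Levels after 17-DMAG in the resistant populations were also set against untreated 4T1, by library ranges alone. In treated 4T1R1 every library was above every untreated 4T1 library for 6 members and below for 1, Nfkb2, with 3 overlapping. In treated 4T1R2 it was above for 5, below for 1, Rel, and overlapping for 4. Over all genes tested, 28.5% lay wholly above and 29.9% wholly below in treated 4T1R1, and 28.3% and 29.2% in treated 4T1R2. Nfkbia after the drug was at 166% of its untreated 4T1 level in 4T1R1 and at 196% in 4T1R2, Bcl3 at 172% and 149.6%, and Nfkbiz at 119% and 142%.

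In the order of levels across the 6 groups, untreated 4T1R1 came highest for 9 members and treated 4T1 lowest for all 10. Nfkbib was headed by untreated 4T1R2, and its untreated and treated 4T1 libraries overlapped at the bottom. Only in Nfkbia and Nfkb1 did no neighbouring groups overlap. Such orders were not worked out for all genes, so these counts describe the 10 members alone. Nfkbia ran from untreated 4T1R1 through untreated 4T1R2, treated 4T1R2, treated 4T1R1 and untreated 4T1 to treated 4T1, whereas in Nfkb1 treated 4T1R1 came before treated 4T1R2. In Relb, untreated 4T1R2, treated 4T1R1, untreated 4T1 and treated 4T1R2 each overlapped the next.

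Levels were compared between genes per kb of merged exon, which makes them comparable as transcripts only if all exons are used. Merged exons came to 12061 bases in Nfkb1, against 4584 in Nfkb2 and 3072 in Rela. A shorter Nfkb1 transcript would raise its share and lower the inhibitor ratio given below. In untreated 4T1 the 5 subunits summed to 2240 to 2350 normalized counts per kb, of which Nfkb2 made up 45.8%, Rela 30.4%, Nfkb1 16.0%, Relb 5.69% and Rel 2.1%. The 3 cytoplasmic inhibitors summed to 1210 to 1230 per kb, with Nfkbia at 61.9% ± 2.46 (SD, n = 3), Nfkbib at 22.0% ± 1.41 and Nfkbie at 16.1% ± 1.06. The nuclear IκB genes Nfkbiz and Bcl3 summed to 366 to 400 per kb.

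After 17-DMAG the 4T1 sums per kb were 1560 to 1570 for the subunits, 513 to 526 for the inhibitors and 207 to 218 for the nuclear genes. The make-up of the inhibitors changed with it: Nfkbib became the largest, at 51.2% ± 0.083 (SD, n = 2), and Nfkbia came to 33.9% ± 1.97. In the other 5 groups Nfkbia always held the largest share, 61.9% on average in untreated 4T1 and 70.6% to 74.6% in the resistant groups. In the resistant populations the inhibitors summed to 2450 to 2580 per kb in untreated and 1770 to 1790 in treated 4T1R1, and to 2160 to 2370 and 1950 to 2090 in 4T1R2.

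Inhibitor transcripts per subunit transcript, the ratio of these sums, were 0.528 ± 0.0114 in untreated 4T1 (SD, n = 3) and 0.332 ± 0.00363 after 17-DMAG (SD, n = 2). They were 0.890 ± 0.0232 and 0.777 ± 0.00868 in 4T1R1, and 0.859 ± 0.0435 and 0.861 ± 0.0113 in 4T1R2. No library of a resistant population, treated or not, came below 0.771, and no 4T1 library came above 0.541. Treated and untreated libraries overlapped in 4T1R2 but not in 4T1 or 4T1R1. No test was made of these sums and ratios.

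**Figure D4:**
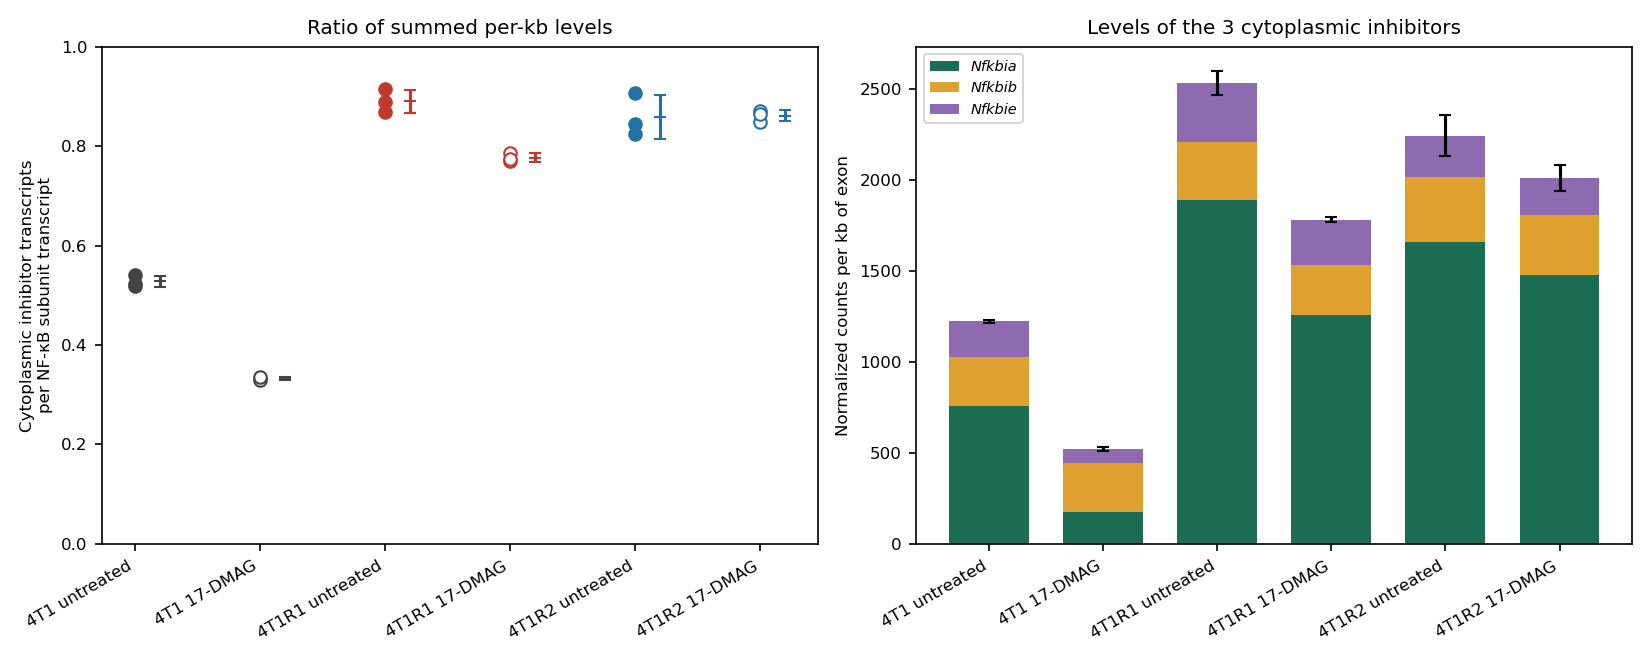
Left, summed per-kb level of Nfkbia, Nfkbib and Nfkbie divided by that of the 5 subunits, in each library (points; filled untreated, open 17-DMAG-treated) with mean ± SD. Right, group means of the 3 inhibitors in normalized counts per kb, stacked, with the SD of their sum. The ratio drops from 0.528 to 0.332 in 4T1 and stays at 0.859 and 0.861 in 4T1R2, and the Nfkbia share of the stack falls from 61.9% to 33.9% in 4T1.

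The rest of the pathway was read from 5 lists of 53 genes, of which 49 were tested. In untreated 4T1R1 against 4T1, 19 were higher and 15 lower, with a median log2FC of 0.10, and in untreated 4T1R2 19 were higher and 11 lower, with a median of 0.02. After 17-DMAG 6 were higher and 16 lower in 4T1, 5 and 12 in 4T1R1, and 2 and 2 in 4T1R2. Of all genes tested, 25.2% were higher and 27.5% lower in untreated 4T1R1, and 25.6% and 26.9% in untreated 4T1R2. For the drug response the shares were 18.4% higher and 17.9% lower in 4T1, 13.9% and 14.3% in 4T1R1, and 6.18% and 4.35% in 4T1R2. The counts here and for each list below are to be read against these shares. The lists were not tested as sets.

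Of the 19 genes of the IKK complex and its activators, 7 were higher and 6 lower in untreated 4T1R1, 4 and 5 in untreated 4T1R2, 4 and 5 after 17-DMAG in 4T1, 2 and 3 in 4T1R1, and none in 4T1R2. Ikbke, the IKK-related kinase IKKε, was the largest change in both resistant populations, at 676 to 726.5 normalized counts in untreated 4T1, 1722 to 1983 in 4T1R1 (log2FC 1.41, SE 0.0576) and 1224 to 1270 in 4T1R2 (log2FC 0.82, SE 0.0598). It fell after 17-DMAG in 4T1 (-0.47) and in 4T1R1 (-0.33). The ubiquitin ligase Traf6, which relays Toll-like and IL-1 receptor signals to IKK, rose by 0.35 in 4T1 and by 0.24 in 4T1R1, and the adaptor Bcl10 fell by 0.45 in 4T1 and by 0.19 in 4T1R1.

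Of the 6 genes of the ligase that marks IκB proteins for degradation, 4 were lower and none higher in untreated 4T1R1, and 1 was higher in untreated 4T1R2. After 17-DMAG 1 was higher and 1 lower in 4T1, 1 and 1 in 4T1R1, and 1 higher in 4T1R2. Btrc, the substrate-recognizing F-box protein, fell by 0.35 in 4T1. Skp1a rose by 0.24 in 4T1, by 0.29 in 4T1R1 and by 0.13 in 4T1R2.

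Of the 9 brakes of the pathway, 5 were higher and 1 lower in untreated 4T1R1 and 6 and 1 in untreated 4T1R2. After 17-DMAG 6 were lower in 4T1, 4 lower and 1 higher in 4T1R1, and 2 lower in 4T1R2. Zc3h12a, an RNase that degrades cytokine transcripts, stood at 240.3 to 262 in untreated 4T1, at 1924 to 2007 in 4T1R1 (log2FC 2.97, SE 0.0734) and at 1726 to 1809 in 4T1R2 (log2FC 2.82, SE 0.0744). It fell after the drug, with a log2FC of -1.14 in 4T1, -1.07 in 4T1R1 and -0.40 in 4T1R2. Tnip1, a partner of A20, was higher by 1.42 and 1.20 in the resistant populations. Tnfaip3, the gene of A20 itself, fell by 0.67, 0.44 and 0.16 after 17-DMAG in 4T1, 4T1R1 and 4T1R2.

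Of the 10 other IκB-like and nuclear regulators, 4 were higher and 3 lower in untreated 4T1R1, and 5 and 3 in untreated 4T1R2. After 17-DMAG 1 was higher and 2 lower in 4T1, 1 and 3 in 4T1R1, and 1 and none in 4T1R2. Nfkbid, the gene of the nuclear protein IκBNS, was higher by 1.17 (SE 0.167) in 4T1R1 and by 0.94 (SE 0.173) in 4T1R2, at 57 to 80 counts in 4T1. Pdlim2, a ligase that acts on nuclear RelA, was lower by 0.76 and 1.11. Of the 9 receptors and ligands of the non-canonical branch 5 were tested, with 3 higher and 1 lower in untreated 4T1R1 and 3 and 2 in untreated 4T1R2, and with 2 lower after 17-DMAG in 4T1, 1 lower in 4T1R1 and none in 4T1R2. Tnfrsf11a, the gene of RANK, was at 2.07 to 6.41 normalized counts in untreated 4T1, 58.4 to 64.1 in 4T1R1 and 24.8 to 54.7 in 4T1R2. The receptor gene Tnfrsf12a was lower by 0.43 and 0.50 in the resistant populations.

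**Figure D5:**
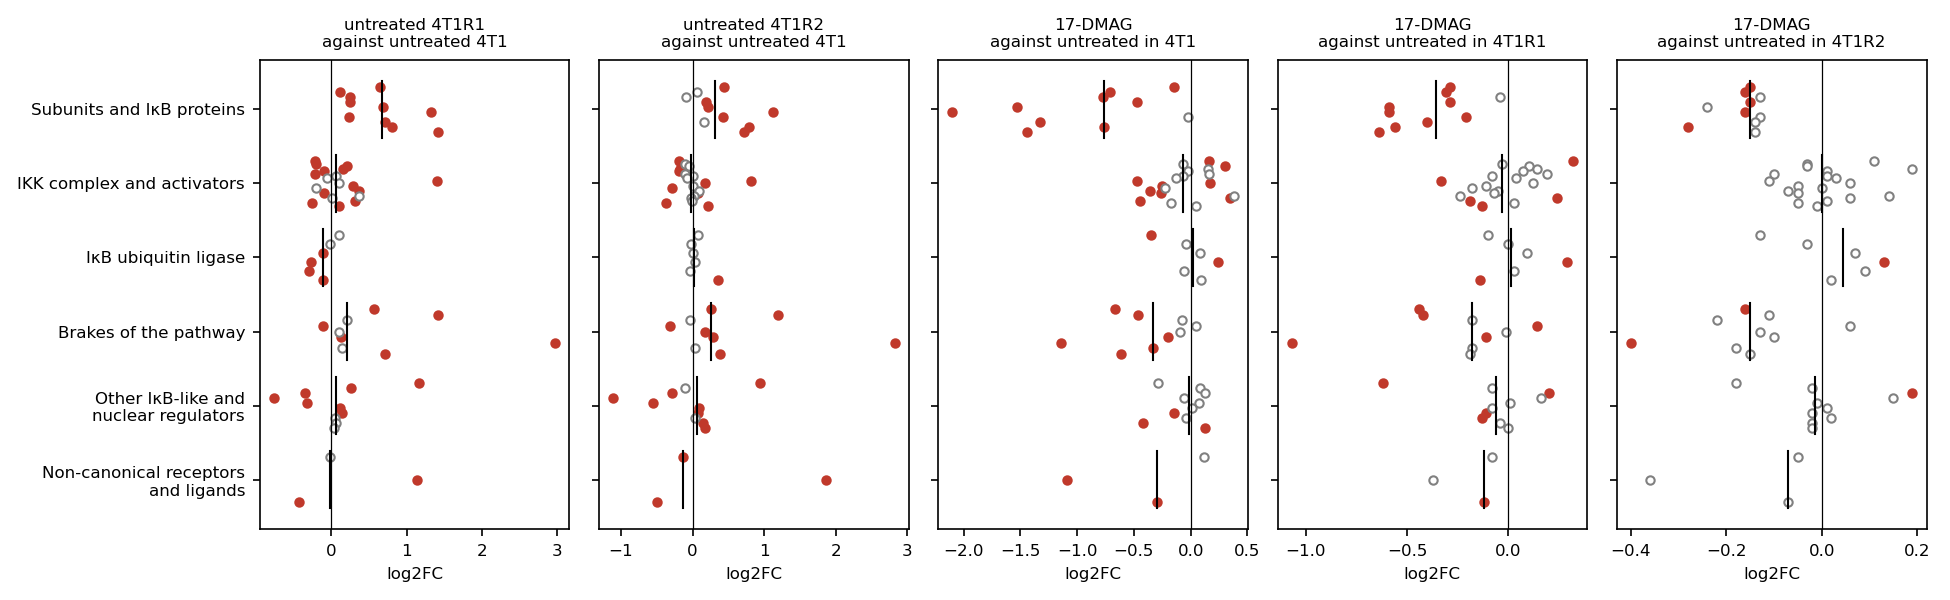
log2FC of the 10 genes and of the 5 lists in 5 comparisons, 1 point per gene tested whose mean reached 10 normalized counts in every group (which leaves out Tnfrsf11a and Ltb). Filled red points passed the adjusted threshold, open grey points did not, and black bars are medians. The axes differ between panels, and the 10 genes lie to the left of 0 after 17-DMAG while the IKK and ligase lists straddle it.

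Genes with the most similar pattern were sought over the 17 libraries by Pearson's r of log2 normalized counts among 10330 genes with a mean of at least 100. The libraries share 6 groups, so a high r mostly tells that group means run in parallel, and no test was made. Nfkbia was most like Neurl3 (r = 0.994), Hivep2 (0.989) and Ptges (0.988). Nfkbiz was most like Rnf19b (0.989), Slc11a2 and Gdpd5 (both 0.985), and Bcl3 was most like Micall2 (0.985), Sbno2 and Tnfrsf1b (both 0.983). Relb and Nfkbie were among each other's nearest 3 (0.975), the only pair of members for which this was so. Relb was further like Cttnbp2nl (0.976) and Zfp36l2 (0.969), and Nfkbie like Lif (0.971) and Ttn (0.97).

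Nfkb1 was most like Tapbp (0.98), Susd6 (0.978) and Gdnf (0.967), Nfkb2 like Fhod1 (0.977), Ints7 (0.975) and Zfp36l2 (0.971), and Rela like Midn (0.975), Zfp710 and Jade2 (both 0.959). Rel had lower values, with Lyst (0.952), Nfia (0.945) and Cyp1b1 (0.944). Nfkbib had the lowest of the 10, with Sgta (0.937), Exosc5 (0.925) and Syvn1 (0.921). Between members, r was lowest for Rel and Nfkbib, at 0.09.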

How the data were processed

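Total RNA of 18 cultures in 6 groups was sequenced. The authors deposited whole-number read counts per gene symbol, without normalization. The submitters' processing notes name bcl2fastq 2.20, STAR, featureCounts, Subread 1.6.2 and the builds mm10 and GRCm38. Versions of STAR and the strand setting are not given in the sources used here. Between 65.6% and 70.8% of counts from 1 to 12 were even in each library, so both reads of a fragment appear to be counted. Totals ran from 23354461 to 55094630.

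Counts of treated 4T1 replicates 1 and 2 were averaged. After filterByExpr, TMM factors (0.921 to 1.06) scaled the 17 libraries and 6 group means were fitted in edgeR 4.0.16 (R 4.3.3). The 11 comparisons, interactions included, used edgeR's quasi-likelihood test with Benjamini-Hochberg adjustment over 13507 genes. The SE is the log2FC divided by the square root of F, and 95% intervals use the t distribution. Per-kb levels use merged exons of GENCODE vM21. Plots used matplotlib 3.10.9 (Python 3.11.15). The code was tested on simulated data.

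Genes named were the 10 members, Hsph1, the 3 genes most alike in pattern, and for each of the 5 lists at most 2 genes called in each direction per comparison. Psd, Sirt2, AC114539.1, Ccer2 and Gm16175 were named for their overlap, Rn45s for its share of the counts, and Tnfrsf11a and Ltb with their levels or as left out of a plot. The members and lists were chosen with earlier results of these data known. Alternatives were RLE scaling, total counts alone, no filter, at least 10 counts in every library, DESeq2 1.42.0, only the groups compared, 18 separate libraries, the near-identical libraries summed, a block by replicate number, a 1.5-fold minimum, and omission of every library singly. A wider form of the NF-κB consensus was added after the data were seen. The study's other experiments were not analysed here.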

Additional observations from a re-analysis of the deposited data

Results flagged for a closer look

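The following results are listed because the response to 17-DMAG differed between populations by a test of the difference itself (edgeR's quasi-likelihood test of the interaction, adjusted over all genes). All are differences of log2FC. In 4T1R1 against 4T1 they were -0.14 for Nfkb1, 0.40 for Nfkb2, 0.72 for Rel, 0.94 for Relb, 1.52 for Nfkbia, 0.93 for Nfkbie, 0.21 for Nfkbiz and 0.80 for Bcl3. In 4T1R2 against 4T1 they were 0.55 for Nfkb2, 0.64 for Rel, 0.32 for Rela, 1.29 for Relb, 1.94 for Nfkbia, 1.18 for Nfkbie, 0.48 for Nfkbiz and 1.31 for Bcl3. In 4T1R2 against 4T1R1 they were 0.42 for Nfkbia and 0.27 for Nfkbiz. The comparisons share libraries, so these values are not independent of each other. Groups hold at most 3 libraries, too few for a check of single outlying samples.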

How the results depend on the processing

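Of 3190 values of the 10 genes under 29 alternatives, 3066 kept their direction and their side of the threshold, 90 lost the call, 16 gained it and 18 changed sign. Changed counts of members are listed here where they moved by more than 1.5 times or to or from 0. With a 1.5-fold minimum the counts of members became 6 higher of 10 in untreated 4T1R1, 3 of 7 in untreated 4T1R2, and 0 higher and 1 lower between these populations. They became 3 lower of 9 after 17-DMAG in 4T1R1 and 0 of 5 in 4T1R2. Shares of all genes were not worked out under the alternatives, so these counts describe the 10 members alone. The responses of 4T1R1 minus 4T1 then had 0 lower, those of 4T1R2 minus 4T1 5 higher and those of 4T1R2 minus 4T1R1 0 higher, and treated 4T1R2 had 6 higher. Counts that moved less also lost members under this minimum. After 17-DMAG in 4T1 they were Nfkb1 (-0.15) and Rela (-0.47). In the 4T1R1 minus 4T1 response the higher members lost were Nfkb2 (0.40) and Nfkbiz (0.21). Between treated 4T1R1 and treated 4T1 they were Nfkb1 (0.50), Nfkb2 (0.53) and Rela (0.43). Total counts as the only scaling gave 0 higher in untreated 4T1R2 against 4T1R1, 0 lower in the 4T1R1 response and 1 higher in the 4T1R2 against 4T1R1 response, and moved the median of all genes by -0.115 after 17-DMAG in 4T1, by 0.149 in the 4T1R1 minus 4T1 response and by 0.176 between treated 4T1R1 and 4T1. Without a filter, 0 were higher in untreated 4T1R2 against 4T1R1. Leaving out 1 sample gave 3 to 6 lower after 17-DMAG in 4T1R2 (3 without untreated replicate 3 or treated replicate 2), 0 to 1 lower in the 4T1R1 minus 4T1 response, 1 to 3 higher in the 4T1R2 minus 4T1R1 response, and 0 to 1 higher in untreated 4T1R2 against 4T1R1. Where this left 1 treated 4T1 sample, it was assumed to vary like the other groups.

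Signs changed for a few small values. For Nfkb1 the 4T1R1 minus 4T1 response became 0.005 with total counts. Its 4T1R2 minus 4T1 response became 0.064 with total counts, 0.001 with at least 10 counts and 0.0 with only the groups compared, and ran from -0.034 to 0.027 with 1 sample left out. Leave-one-out values of Nfkbib ran from -0.072 to 0.025 after 17-DMAG in 4T1 and from -0.01 to 0.097 between treated 4T1R1 and 4T1, and its 4T1R2 minus 4T1R1 response became -0.003 with total counts. They ran from -0.065 to 0.019 for Nfkbiz and from -0.114 to 0.006 for Rela between untreated 4T1R2 and 4T1R1, and from -0.087 to 0.008 for Rel after 17-DMAG in 4T1R1. The causes were not tested.

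Same-numbered libraries did not deviate together (45 pairs, correlation -0.052 to 0.05, none above 0.1). Cultures paired by number but sharing little variation would look the same, so whether they were paired is not settled. The replicate block, with 18 separate libraries, changed 1 of 110 calls: the Rela response of 4T1R1 minus 4T1 was 0.20 (adjusted P = 0.0337), and it was 0.197 (adjusted P = 0.0384) with 18 libraries and no block. Depth limits Bcl3 most, the member with the lowest counts.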
